A study of Mus musculus with 63 samples.

Results

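The genes described here are the Fos and Jun family, which comprises the 7 genes Fos, Fosb, Fosl1, Fosl2, Jun, Junb and Jund. They were selected by symbol, with earlier results of these data known, and are 7 of the 55291 gene symbols in the count tables. They were followed through RNA sequencing of organotypic entorhino-hippocampal tissue cultures, in which a brain slice containing the entorhinal cortex and hippocampus matures in a dish for at least 18 days after preparation at postnatal day 3 to 5 from mice of either sex. Synpo+/+ cultures came from C57BL/6J mice. Synpo-/- cultures came from the strain B6.129-Synpotm1Mndl/Dllr, back-crossed to C57BL/6J, which lacks synaptopodin, an actin-modulating protein of the spine apparatus. The deletion is not restricted to a cell type.

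The entorhinal cortex lesion (ECL) is a scalpel cut that severs the perforant path, the input from the entorhinal cortex to dentate granule cells and CA3 pyramidal cells, and lesioned regional samples were taken 3 days later. Control cultures were not lesioned. In the first set, the dentate gyrus (DG) or area CA3 of 1 culture was cut out with a scalpel and gave 1 library: the DG set held 4 Synpo+/+ control, 7 Synpo+/+ ECL, 7 Synpo-/- control and 4 Synpo-/- ECL libraries, and the CA3 set held 2, 3, 6 and 6 libraries of the same groups. In the second set, RNA was recovered by co-immunoprecipitation with synaptopodin (coIP) from lysates of pooled cultures (6 a sample by the labels, 5 to 6 by another account of the samples), and an input library was made from the same lysate; there were 5 pairs of Synpo+/+ control, 5 pairs of Synpo+/+ ECL and 2 pairs of Synpo-/- samples. The titles of the Synpo-/- pairs give no lesion state. The labels give no time after lesion for the coIP samples, and they do not state that replicates came from separate animals, so the p-values measure only the spread between these samples.

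Total counts ranged from 14055930 to 46043990 per regional library and from 11601154 to 53682143 per coIP or input library. The coIP and input libraries labelled Synpo-/- held 42886994 to 53682143 counts and the Synpo+/+ ones 11601154 to 29014397. Genotype and depth therefore cannot be told apart in that set. Each regional library was amplified from a small amount of RNA with 12 PCR cycles at the cDNA step and more at the library step, and the sources name no molecular identifiers. In the regional libraries, Synpo itself was not lower where the label was Synpo-/-: the 4 DG Synpo+/+ control libraries had 19.1 to 24.4 CPM, counts scaled to the size of each library, and the 7 labelled Synpo-/- had 40.9 to 69.3, a log2 difference of 1.17 ± 0.126 (SE, adjusted p = 0.000517). Counts per gene do not show where in a gene the reads lie, so this value checks the label only as far as the number of reads. In coIP, Synpo was 25.7 to 30.7 CPM in the 2 libraries labelled Synpo-/- and 35.1 to 41.2 CPM in the 5 Synpo+/+ ECL libraries, which did not overlap, and 27.0 to 42.2 CPM in the 5 Synpo+/+ control libraries. Against input it had log2 fold changes of 0.47 in both Synpo+/+ groups (adjusted p = 0.0107 in control and 0.00134 in ECL) and of -0.03 in the samples labelled Synpo-/- (adjusted p = 0.896), and the difference between genotypes did not pass (-0.45, adjusted p = 0.761). Prox1, which marks granule cells, was 170 to 217 CPM in 6 of the 7 DG Synpo+/+ ECL libraries and 15.5 CPM in replicate 5, near the 12.7 to 17.2 CPM of the 3 CA3 Synpo+/+ ECL libraries. The main results of the Synpo+/+ DG after ECL are therefore also given without this library.

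Fos and Jun proteins bind DNA in pairs as the transcription factor AP-1. Jun proteins can pair with each other or with a Fos protein, whereas Fos proteins need a partner, and the composition of the pair shapes which genes are activated. In the hippocampus Fos, Fosb and Junb are known as immediate early genes, transcribed within minutes of synaptic activity through the serum response factor, its Elk partners and CREB, and Jun is also known for its response to axonal injury. Of the Fos group, Fos and Fosb carry a strong activating region, and Fosl1 and Fosl2 encode the Fos-related antigens Fra-1 and Fra-2. Of the Jun group, Jun is the strong activator, Junb is often a weaker or antagonistic partner, and Jund is broadly expressed at steady levels.

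Stretches upstream of the gene starts are shown because Fos and Junb were the members with the largest lesion differences in the DG, where Jun had small ones. They are the 250 bases before the RefSeq start, read on the strand of the gene in GRCm38.p6, for Fos at chr12:85473640-85473889 (plus strand), for Junb at chr8:84978749-84978998 (minus strand) and for Jun at chr4:95052223-95052472 (minus strand). Capitals in Fos and Junb mark TGACG, the core of the CREB-binding element TGACGTCA, and capitals in Jun mark TGACATCA, a variant of the AP-1 site.
Fos: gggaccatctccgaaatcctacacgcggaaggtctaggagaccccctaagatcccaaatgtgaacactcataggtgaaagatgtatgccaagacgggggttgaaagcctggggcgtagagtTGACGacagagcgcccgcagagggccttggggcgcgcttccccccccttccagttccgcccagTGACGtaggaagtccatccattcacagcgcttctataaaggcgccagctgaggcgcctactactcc
Junb: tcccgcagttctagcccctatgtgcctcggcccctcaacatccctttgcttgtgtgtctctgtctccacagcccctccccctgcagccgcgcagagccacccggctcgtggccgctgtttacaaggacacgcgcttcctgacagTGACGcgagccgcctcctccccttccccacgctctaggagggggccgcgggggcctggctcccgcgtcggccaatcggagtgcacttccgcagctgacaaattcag
Jun: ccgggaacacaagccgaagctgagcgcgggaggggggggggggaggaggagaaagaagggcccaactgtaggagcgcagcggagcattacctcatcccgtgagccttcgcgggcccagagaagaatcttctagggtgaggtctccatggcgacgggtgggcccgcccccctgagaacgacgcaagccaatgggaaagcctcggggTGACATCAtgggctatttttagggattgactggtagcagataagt
Fos held TGACG at 2 places, 129 to 125 and 66 to 62 bases before the start, and Junb held it 106 to 102 bases before the start. Fosb held TGACG once, 60 to 56 bases before its start, and it was in neither the Fosl2, the Jun nor the Jund window. Searched on both strands, TGACG was in 17.8% of 32851 RefSeq windows of this length and TGACATCA in 2.93%. The Jun window held TGACATCA 45 to 38 bases before the start. TGACGTCA, which overlaps TGACG, was in 1.55% of windows, the AP-1 site TGANTCA in 6.75% and the CArG box of the serum response factor in 1.47%, and none of these was in the windows of the 6 members with an entry. RefSeq starts Jund 1210 bases upstream of the start that the count tables use, so that its window lies further from the counted exon. The Fosl2 window, at chr5:32136222-32136471 on the plus strand, lies inside the counted gene, which starts at 32135801. A match to letters is a description of the window and not a binding site. Bases beyond the 250 were not searched, so a missing match says nothing about sites further upstream.

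In CPM per kb of full exon length, Fos and Jun had the highest levels of the family in the regional libraries. Without this scaling, the medians were 45.6 CPM for Jun, 36.9 for Fos, 33.3 for Fosl2 and 12.2 for Jund. Scaled by exon length, the median level over the 39 regional libraries was 15.7 CPM per kb for Fos, 14.3 for Jun, 7.32 for Jund, 4.86 for Junb, 3.44 for Fosl2, 0.211 for Fosb and 0.0323 for Fosl1. The range was widest for Fos, at 7.69 to 77.5 CPM per kb, and Jun lay between 8.87 and 22.9. Fosl1 had 0 to 7 counts per regional library, was at 0 in 11 of 39, and did not pass the filter on low counts in any regional comparison. The other 6 genes passed it in each regional comparison. Fosb lay between 0.357 and 2.88 CPM, so that its fold changes rest on few reads.

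In the 24 coIP and input libraries the order was Fos with a median of 14.7 CPM per kb, Jun with 4.85, Fosl2 with 2.39, Jund with 2.24, Junb with 1.80, Fosl1 with 0.103 and Fosb with 0.0383. The genes lie at distinct places: Fos on chromosome 12, Fosb on 7, Fosl1 on 19, Fosl2 on 5, Jun on 4, and Junb and Jund both on 8, in GRCm38. Jun, Junb and Jund are single-exon genes. Counting ignored strand, and the exons of Jund overlap the antisense gene Gm11175 over 52.6% of their length, which was listed at 0 in every library. Jun shares 7.28% of its exon with the antisense Junos and Fosl1 57.2% with Ccdc85b, so reads of these stretches cannot be assigned to 1 of the partners. Levels per kb and family shares use the full exon length, uncorrected for these overlaps. The levels per kb of Jund, Fosl1 and Jun may thus be too low.

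**Figure D1:**
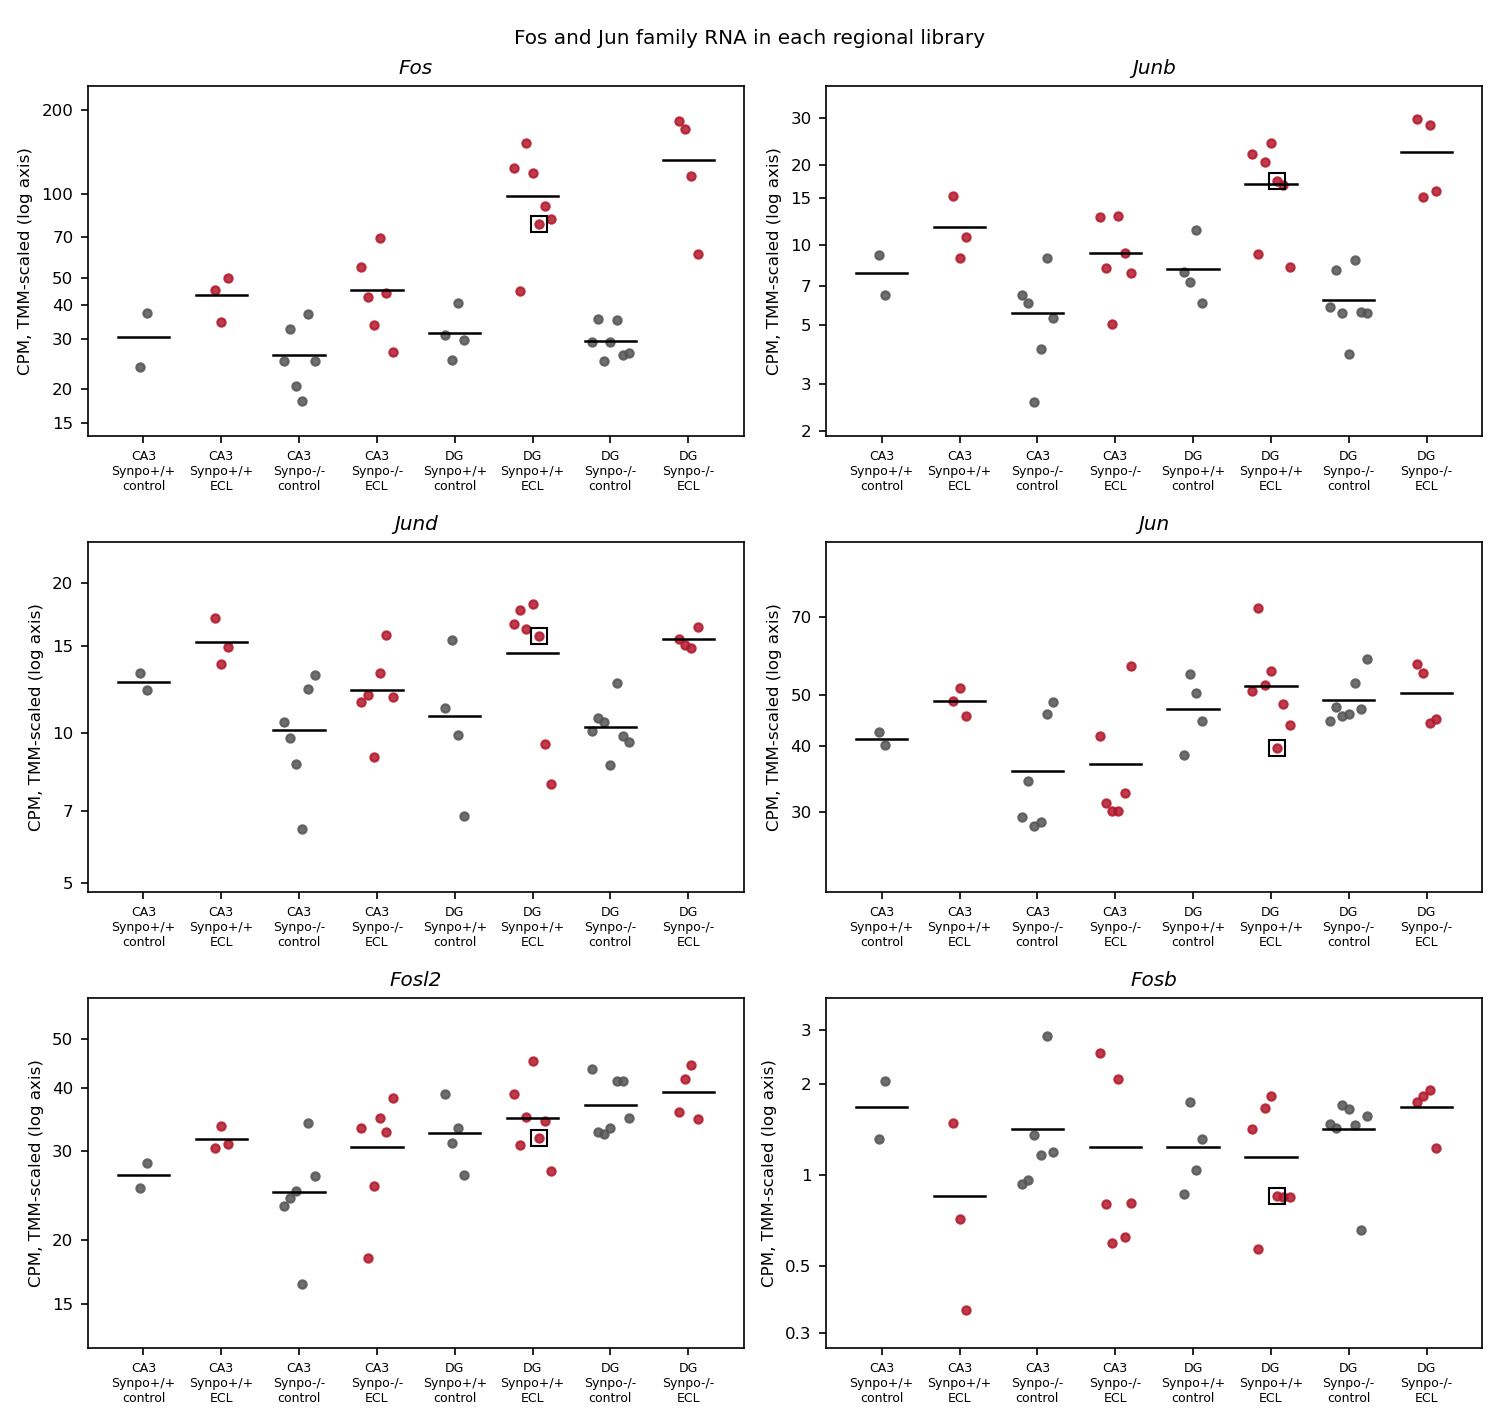
Counts scaled to library size (CPM) of 6 family members in each regional library (log axis), by region and genotype. Grey points are control libraries, red points are ECL libraries, the short line is the group mean and the square marks DG Synpo+/+ ECL replicate 5. Fos and Junb lay higher in the ECL libraries of the DG, where Fos averaged 98.2 CPM in Synpo+/+ and 132 CPM in the libraries labelled Synpo-/-, and the DG values of Jun and Fosl2 overlapped between control and ECL.

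The first comparison asked which members changed in the partially denervated DG of Synpo+/+ cultures. Fos and Junb rose, and the other 4 tested members did not pass the test. Fos, the prototype activity-induced member, was 31.1, 25.4, 40.4 and 29.9 CPM in the 4 control libraries and had a lowest value of 44.9, a median of 90.0 and a highest value of 151 CPM in the 7 ECL libraries. All 7 lesioned libraries lay above all 4 controls. The log2 fold change was 1.61 ± 0.266 (SE), with an adjusted p of 0.00190 in the quasi-likelihood test of edgeR, corrected over all genes by the Benjamini-Hochberg method. Without replicate 5 of the ECL group, it was 1.64 ± 0.245 (adjusted p = 0.000402). Fos passed the test in all 11 fits that left out 1 library.

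Junb, the Jun partner that shares rapid induction with Fos, was 7.90, 7.27, 11.4 and 6.08 CPM in Synpo+/+ DG controls and had a lowest value of 8.29, a median of 17.3 and a highest value of 24.1 CPM after ECL. The groups overlapped at the control of 11.4 CPM and the lesioned libraries of 8.29 and 9.29 CPM. Its log2 fold change was 1.02 ± 0.277 (adjusted p = 0.0294), and 1.00 without ECL replicate 5 (adjusted p = 0.0228). The call was lost without ECL replicate 3 (adjusted p = 0.0512) or 4 (0.0597) and without control replicate 1 (0.0588), 2 (0.0896) or 4 (0.103), with log2 fold changes of 0.89 to 1.01. Removing the trend of fold change with gene length also ended the Junb call (0.76, adjusted p = 0.0660) but not that of Fos (1.37, adjusted p = 0.00698), and it moved the median of all genes from -0.003 to -0.143.

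Of the members not called in the Synpo+/+ DG, Jun had a log2 fold change of 0.11 (adjusted p = 0.610) and Fosl2 of 0.07 (adjusted p = 0.746). Fosb, the close relative of Fos that yields the long-lived truncated protein deltaFosB, had -0.13 ± 0.351 (adjusted p = 0.809). Jund was 11.2, 15.4, 9.91 and 6.83 CPM in controls and 7.90 to 18.2 CPM after ECL. Without ECL replicate 5, Jun, Fosl2 and Fosb had 0.15, 0.07 and -0.09. The ranges of Jund overlapped, and its log2 fold change of 0.40 ± 0.237 did not pass (adjusted p = 0.248). It was 0.36 without ECL replicate 5, 0.21 without control replicate 4 and 0.60 without control replicate 2, and none of the fits with 1 library left out called it. Thus 2 of 6 tested members were called, both higher, where 12.2% of all tested genes were called and 7.86% were called higher.

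In the DG of cultures labelled Synpo-/-, Fos, Junb and Jund rose. Fos was 25.1 at its lowest, 29.4 at the median and 35.7 CPM at its highest in the 7 controls and 182, 171, 115 and 61.0 CPM in the 4 ECL libraries. The groups did not overlap, and the log2 fold change was 2.11 ± 0.204 (adjusted p = 1.13e-05). Junb had a lowest, median and highest control value of 3.90, 5.63 and 8.79 CPM and was 29.6, 15.1, 28.2 and 15.98 CPM after ECL. It did not overlap either and had a log2 fold change of 1.80 ± 0.207 (adjusted p = 6.63e-05).

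Jund, usually the steady member of the family, had control values of 8.63, 10.1 and 12.6 CPM at the lowest, median and highest and was 15.4, 15.1, 14.9 and 16.4 CPM after ECL. All 4 lesioned libraries lay above the controls, within a narrow range. Its log2 fold change of 0.54 ± 0.106 was smaller than those of Fos and Junb (adjusted p = 0.00458). Jun, Fosl2 and Fosb had log2 fold changes of 0.00, 0.04 and 0.20, with adjusted p of 0.994, 0.900 and 0.747. In all, 3 of 6 tested members were called, all higher, where 8.53% of all tested genes were called and 5.17% were called higher, and the 3 calls held in all 11 fits that left out 1 library.

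**Figure D2:**
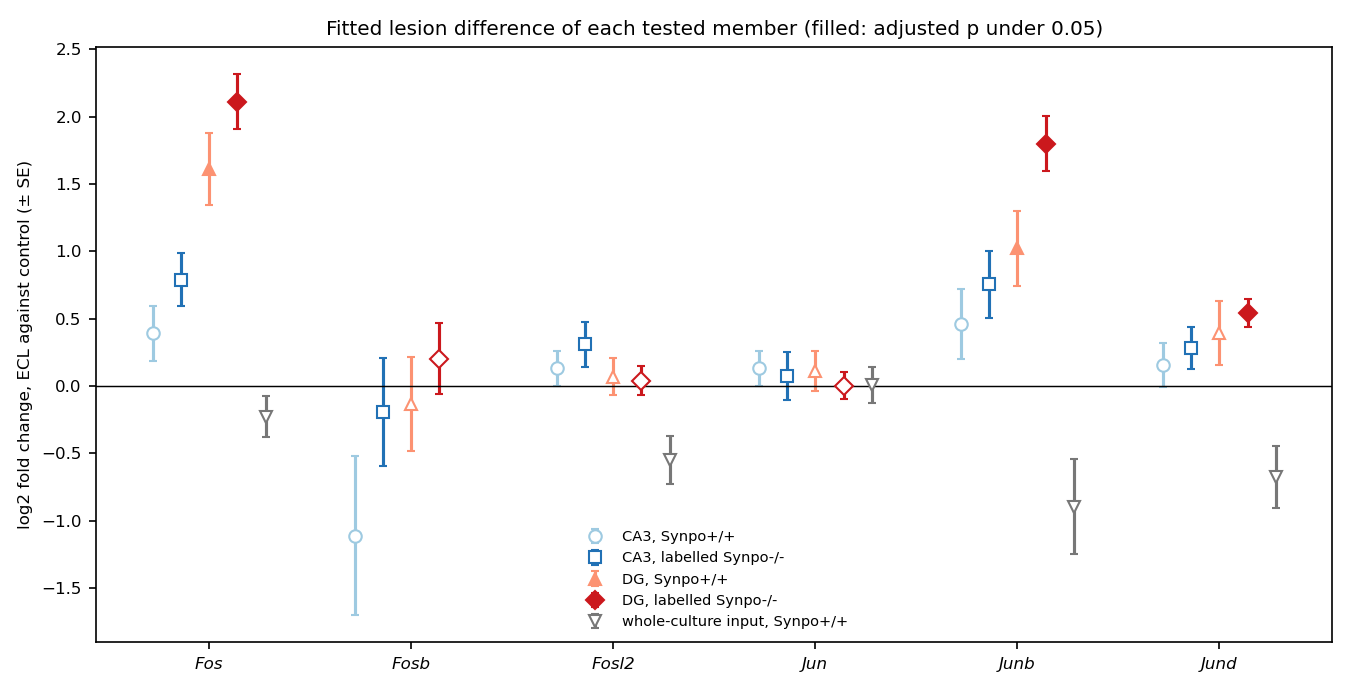
Log2 fold change, ECL over control, of the tested family members in the DG and CA3 of each genotype and in the Synpo+/+ input, with bars of 1 standard error. Filled points passed an adjusted p of 0.05 in edgeR's quasi-likelihood test. Fos lay at 1.61 and 2.11 in the DG of the 2 genotypes, and its values in CA3 were 0.39 and 0.79.

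The values of Fos and Junb were larger in the DG libraries labelled Synpo-/- than in Synpo+/+, but the difference itself did not pass. The difference between the lesion effects was 0.47 ± 0.354 for Fos (adjusted p = 0.553) and 0.74 ± 0.370 for Junb (adjusted p = 0.480), where 0.00381% of all tested genes were called, and 0.42 and 0.74 without Synpo+/+ ECL replicate 5 (adjusted p = 0.669 and 0.595). In the ECL libraries of the DG, the direct difference between the labelled genotypes was 0.40 ± 0.299 for Fos and 0.37 for Junb (adjusted p = 1.00 each), and 0.36 and 0.38 without that library. None of the 6 members was called between genotypes in any of the 4 region and lesion groups, with 0.00413%, 0.00891%, 0.0166% and 0.0166% of genes called in CA3 control, CA3 ECL, DG control and DG ECL. The widest such difference in DG control was that of Junb, at -0.43 (adjusted p = 0.308). These comparisons share the libraries of the lesion comparisons.

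In area CA3, whose pyramidal cells receive both perforant path input and the mossy fibres of the granule cells, no member was called after ECL. Fos was 23.9 and 37.5 CPM in Synpo+/+ controls and 45.2, 34.7 and 50.0 CPM after ECL. The groups overlapped, and the log2 fold change was 0.39 ± 0.202 (adjusted p = 0.268). Junb was 9.20 and 6.52 CPM in controls and 15.3, 8.93 and 10.8 CPM after ECL, a log2 fold change of 0.46 (adjusted p = 0.310). The 3 less responsive members were each slightly higher after ECL in this comparison and did not pass. Jun was 42.5 and 40.1 CPM in controls and 48.7, 51.5 and 45.6 CPM after ECL (log2 fold change 0.13, adjusted p = 0.561). Fosl2 was 25.4 and 28.4 against 30.4, 33.6 and 30.9 CPM (0.13, adjusted p = 0.572), and Jund 13.2 and 12.2 against 17.04, 13.8 and 14.9 CPM (0.16, adjusted p = 0.596). None of 6 tested members was called, where 1.78% of genes were, and Fosb, at few counts, had -1.11 ± 0.591 (adjusted p = 0.280).

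In CA3 labelled Synpo-/-, Fos had a lowest, median and highest value of 18.1, 25.1 and 36.9 CPM in controls and 27.0, 43.4 and 69.5 CPM after ECL. The ranges overlapped, with a log2 fold change of 0.79 ± 0.194 that did not pass (adjusted p = 0.232). Junb went from a median of 5.70 to 8.76 CPM, with a log2 fold change of 0.76 ± 0.249 (adjusted p = 0.533). None of 6 members was called where 0.0770% of genes were, and Fos was called by DESeq2 (adjusted p = 0.0257) and by edgeR with no filter on low counts (adjusted p = 0.00455).

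The lesion effect on Fos in the DG was set directly against that in CA3. In the libraries labelled Synpo-/-, the effect in the DG exceeded that in CA3 by 1.30 ± 0.311 on the log2 scale (adjusted p = 0.0325), the only member called of 6, where 1.12% of genes were called. The call was lost without DG Synpo-/- ECL replicate 1 (1.12, adjusted p = 0.118) or replicate 2 (1.15, adjusted p = 0.0944). In Synpo+/+, the same difference was 1.16 ± 0.417 and did not pass (adjusted p = 1.00), nor at 1.22 without DG ECL replicate 5 (adjusted p = 0.492). There 0% of genes were called, and 1240 of the 27783 tested had an unadjusted p under 0.05. For Junb the difference was 1.02 ± 0.355 in the libraries labelled Synpo-/- (adjusted p = 0.196) and 0.51 in Synpo+/+, or 0.50 without DG ECL replicate 5.

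Between the regions at rest, Fosl2 and Jun were the members called. In control libraries labelled Synpo-/-, Fosl2 was 32.4 to 43.6 CPM in the DG and 16.4 to 34.1 CPM in CA3, and the log2 difference was 0.68 ± 0.118 (adjusted p = 0.000266). Jun had a median of 47.1 CPM in the DG and 31.9 CPM in CA3 of these libraries, with a log2 difference of 0.55 ± 0.120 (adjusted p = 0.00195). Both ranges overlapped, and 2 of 6 members were called where 25.5% of all genes were, so that this share is near the background. In Synpo+/+ control libraries, Fosl2 had a log2 difference of 0.29 and Jun of 0.20, and none of 6 members was called where 5.39% of genes were.

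After ECL, the members higher in the DG were Fos and Junb. In the libraries labelled Synpo-/-, Fos was higher in the DG by 1.56 ± 0.273 (adjusted p = 0.00127) and Junb by 1.26 ± 0.246 (adjusted p = 0.00281) on the log2 scale, where 13.6% of genes were called. In Synpo+/+, Fos was higher by 1.25 ± 0.296 (adjusted p = 0.0453) and Junb had 0.60, where 2.05% of genes were called. The Fos call in Synpo+/+ was lost without CA3 ECL replicate 1 (adjusted p = 0.154), 2 (0.218) or 3 (0.175). Without DG ECL replicate 5, the library with the low Prox1, it was 1.28 (adjusted p = 0.00275) and Junb had 0.58, and the number of all genes called rose from 492 to 4746.

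Ordered by mean level, Fos was highest in the ECL groups of the DG, followed by those of CA3 and then by the controls. The means were 132 ± 55.9 CPM (SD, n = 4) in DG Synpo-/- ECL, 98.2 ± 35.3 (n = 7; 102 ± 37.4 without replicate 5, n = 6) in DG Synpo+/+ ECL, 45.3 ± 15.1 (n = 6) in CA3 Synpo-/- ECL and 43.3 ± 7.85 (n = 3) in CA3 Synpo+/+ ECL. The 4 control groups had means of 26.4 to 31.7 CPM. Junb followed the same order of region and lesion, from 22.2 ± 7.75 CPM (SD, n = 4) in DG Synpo-/- ECL to 5.58 ± 2.18 (n = 6) in CA3 Synpo-/- control. Each group overlapped with its neighbour in the order for both genes.

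The make-up of the family was described by the share of each member. Fos made up 31.5 ± 5.06% (SD, n = 4) of the summed CPM per kb of the 7 genes in Synpo+/+ DG controls and 51.2 ± 9.58% (n = 7) after ECL, or 51.6% without ECL replicate 5. In the DG labelled Synpo-/- the share was 30.3 ± 2.62% (n = 7) in controls and 55.4 ± 10.5% (n = 4) after ECL. The mean share of Jun in control and ECL libraries was 34.5% and 21.4% in Synpo+/+ and 36.9% and 16.8% in those labelled Synpo-/-, while its own level did not pass the test in either. In CA3 the Fos share was 31.6% and 34.8% in Synpo+/+ control and ECL and 32.5% and 40.7% in the libraries labelled Synpo-/-. These shares use full exon lengths, uncorrected for the overlaps of Jund, Fosl1 and Jun with other genes. They describe the libraries and were not tested.

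**Figure D3:**
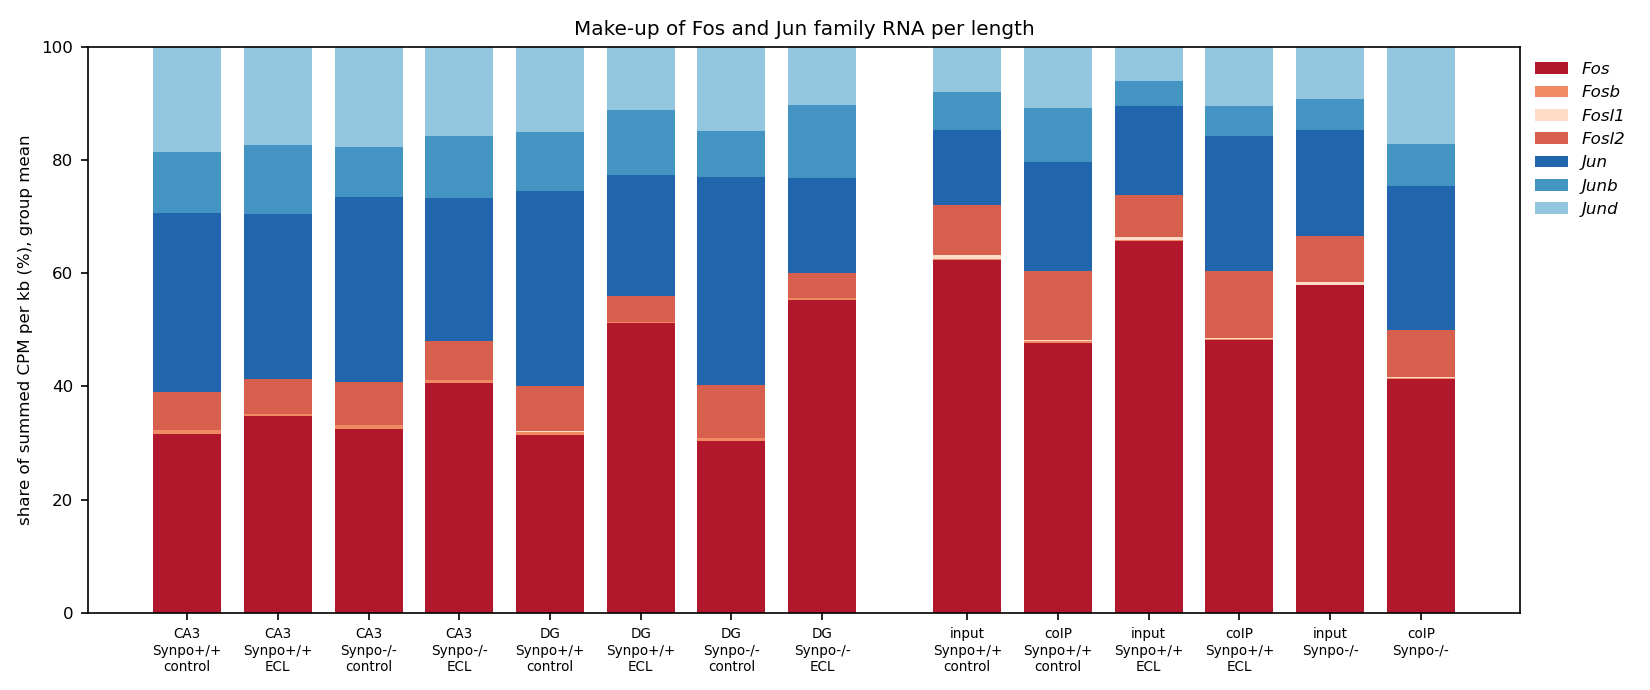
Mean share of each family member in the summed CPM per kb of the 7 genes, as a percentage, for each group of libraries; each bar adds to the whole family. Fos held 31.5% in Synpo+/+ DG controls and 51.2% after ECL, and in the input libraries of Synpo+/+ controls it held 62.4%. Exon lengths were not corrected for stretches shared with other genes.

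Other genes of the activity response moved beside Fos and Junb in the DG. Of 15 other immediate early genes, 8 were called higher and 0 lower in Synpo+/+, with a median log2 fold change of 1.30 beside -0.003 over all genes that were tested, of which 7.86% were called higher. Without ECL replicate 5 the count was also 8, with a median of 1.19. Egr2 and Egr1, zinc finger factors induced with Fos, had log2 fold changes of 3.22 and 1.79 (adjusted p = 0.000482 and 0.000999). Arc, which acts in synaptic plasticity, had 2.90 (adjusted p = 0.00200) and Npas4, a calcium-dependent factor of neurons, 1.30 (adjusted p = 0.00255). In the DG labelled Synpo-/-, 10 of the 15 were called higher and 0 lower with a median of 1.94, against 0.01 over all genes (5.17% of them called higher), led by Egr1 at 2.48 (adjusted p = 1.05e-07), Egr2 at 3.77 (adjusted p = 5.14e-07), Nr4a1 at 2.59 (adjusted p = 7.20e-07) and Btg2 at 2.14 (adjusted p = 5.95e-06). In CA3, 5 of 15 were called higher in the libraries labelled Synpo-/-, where 0.0530% of all genes were, and 1, Btg2 at 1.16 (adjusted p = 0.0469), in Synpo+/+, where 1.78% of all genes were called, 336 of 397 of them higher.

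Of the leucine zipper genes whose proteins can pair with Fos or Jun, 2 of 12 were called higher in the Synpo+/+ DG after ECL and 3 of 12 in the DG labelled Synpo-/-, with 0 lower in either and medians of 0.21 and -0.02, beside 7.86% and 5.17% of all genes called higher. The Synpo+/+ count was 3 without ECL replicate 5. Atf3, induced by injury and stress, had log2 fold changes of 0.97 (adjusted p = 0.00277) and 0.63 (adjusted p = 0.0294) in the 2 genotypes. Batf, a Jun partner of immune cells, had 1.56 in the libraries labelled Synpo-/-. Of 21 genes of upstream kinases and factors, 3 were called higher and 0 lower in Synpo+/+, and 2 higher and 1 lower in the libraries labelled Synpo-/-, shares near those of all genes called (12.2% and 8.53%). The Synpo+/+ count was also 3 without ECL replicate 5.

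Of 13 tested genes known as AP-1 targets, 5 were called higher and 1 lower in both genotypes of the DG, with medians of 0.56 in Synpo+/+ and 0.41 in the libraries labelled Synpo-/-, beside 12.2% and 8.53% of all genes called. Without ECL replicate 5, 6 were called higher and 1 lower in Synpo+/+. Timp1, an inhibitor of metalloproteinases, had log2 fold changes of 1.59 (adjusted p = 0.00118) and 1.05 in Synpo+/+ and Synpo-/-. Cd44, a hyaluronan receptor of reactive astrocytes, had 0.56 in each. Vegfa, the vascular growth factor, was the lower member, at -0.87 (adjusted p = 0.00382) and -0.86 (adjusted p = 0.000110).

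Microglia and astrocyte markers moved in the same libraries. Of 10 microglia markers, 10 were called higher after ECL in the Synpo+/+ DG and 8 in the DG labelled Synpo-/-. Of all tested genes, 7.86% and 5.17% were called higher in these 2 comparisons. The summed level of the microglia markers was 465 to 636 CPM in control and 1177 to 1511 CPM in ECL libraries of Synpo+/+ and 557 to 1220 and 1198 to 1657 CPM in those labelled Synpo-/-. The 7 astrocyte markers summed to 4387 to 5171 CPM in control and 6908 to 8958 CPM in ECL libraries of the Synpo+/+ DG, with 5 called higher, and to 4704 to 5606 and 7324 to 9427 CPM in those labelled Synpo-/-, with 6 called higher. Without Synpo+/+ ECL replicate 5, 10 microglia and 6 astrocyte markers were called higher in Synpo+/+. No marker of either list was at 0 in any library. Of 8 oligodendrocyte markers, 1 was called higher in each genotype of the DG, with median log2 fold changes of 0.63 in Synpo+/+ and 0.30 in Synpo-/-. Without Synpo+/+ ECL replicate 5, 2 were called higher in Synpo+/+, with a median of 0.25. Of 6 neuron markers, 0 were called in the DG of either genotype. In the Synpo+/+ CA3, where no member was called, the microglia sum was 495 to 843 CPM in control and 1023 to 1376 CPM in ECL libraries. There 1 of the 10 markers was called higher, beside 336 of 22340 tested genes. In the CA3 labelled Synpo-/-, the microglia sum was 713 to 1551 CPM in control and 657 to 1149 CPM in ECL libraries, with 0 of 10 called and a median log2 fold change of -0.21. The 8 oligodendrocyte markers there summed to 1889 to 3037 CPM in control and 1259 to 1750 CPM in ECL libraries, without overlap, and 2 of 8 were called lower where 0.0241% of all genes were. The part of these cells in the Fos and Junb values was not tested, and in such tissue samples fewer cells of a type and less RNA per cell cannot be told apart.

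The genes whose levels most resembled Fos over the 39 regional libraries, of 17457 compared, were Btg2 (Pearson r of log2 CPM 0.933), Nr4a1 (0.914) and Egr2 (0.898). Those most like Junb were Gm13889 (0.893), Nr4a1 (0.869) and Ier2 (0.868). The other members resembled other genes: Jun was most like Tnrc6a (0.810), B3gat1 (0.797) and Pnmal2 (0.796), Jund like Tpt1 (0.819), Topors (0.810) and Hp1bp3 (0.790), and Fosl2 like Polr2m (0.813), Parm1 (0.787) and D430019H16Rik (0.778). For Fosb the nearest were Hunk (0.552), Cwf19l2 (0.527) and 2900009J06Rik (0.525), and for Fosl1, at few counts, Phlda1 (0.514), 4732414G09Rik (0.487) and Urb1 (0.456). Among the members, Fos and Junb correlated at 0.878, and at 0.632 after the mean of each group was removed. Fos and Jun correlated at 0.318, and at -0.0260 within groups. Without DG Synpo+/+ ECL replicate 5, Fos correlated at 0.875 with Junb and at 0.334 with Jun, and 18 of the 21 most similar genes were the same. These are descriptions, since the points share libraries, groups and depth.

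The lesion was also examined in the input of the Synpo+/+ coIP samples, which is RNA of whole cultures. None of 5 tested members was called, where 5.61% of genes were. Fos was 66.6, 47.3, 39.7, 35.1 and 37.6 CPM in control input and 45.3, 32.0, 42.2, 40.1 and 34.8 CPM in ECL input. The ranges overlapped and the log2 fold change was -0.23 ± 0.155 (adjusted p = 0.469), which lay on the other side of 0 from the DG values. Fosl2 had -0.55 ± 0.180 (adjusted p = 0.0936), Jund -0.67 ± 0.232 (adjusted p = 0.110) and Junb -0.90 ± 0.352 (adjusted p = 0.167). DESeq2 called Fosl2 at -0.55 (adjusted p = 0.0432) and Jund at -0.68 (adjusted p = 0.0453). The other immediate early genes had a median of -0.25 in this comparison, and of the 13 that could be tested 1 was called lower and 0 higher.

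The coIP comparison asked which transcripts were recovered with synaptopodin relative to the input of the same lysate. In Synpo+/+ control samples, Jun was 15.4, 18.0, 19.5, 20.9 and 16.1 CPM in coIP and 11.2, 10.5, 14.7, 13.2 and 12.4 CPM in input. The coIP libraries all lay above the inputs, with ratios of 1.30 to 1.71 in the 5 pairs and a log2 fold change of 0.55 ± 0.127 (adjusted p = 0.00191). Jun was the only member called of 6 without the pairs as a block, where 55.0% of all genes were called.

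Fos had lower values in coIP than in the input of its own lysate. In Synpo+/+ control samples it was 47.7, 34.5, 27.2, 31.6 and 29.2 CPM in coIP, against the input values given above. It was lower in 5 of 5 pairs, at 0.685 to 0.901 of the input, but the ranges overlapped and the unpaired log2 fold change was -0.39 ± 0.180 (adjusted p = 0.0791). With the pair of each lysate as a block, 5 members were called: Fos at -0.38 (adjusted p = 0.000768), Fosl2 at 0.45 (0.000395), Jun at 0.56 (0.000188), Junb at 0.51 (0.0201) and Jund at 0.44 (0.0390). These are 5 of 6 tested members, where 62.5% of all genes were called under the same block. Without the block, Fosl2 had 0.45 (adjusted p = 0.0943), Junb 0.52 (0.0540) and Jund 0.48 (0.0813), and Fosb, at few counts, 0.90 ± 0.660 (0.260).

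Single libraries moved these unblocked values in Synpo+/+ control samples in both directions. Without input replicate 1, Fos was at -0.22 (adjusted p = 0.241), and without coIP replicate 1, Fosl2 was at 0.23 (adjusted p = 0.319). Without coIP replicate 2, Junb was at 0.40 (adjusted p = 0.139) and Jund at 0.25 (adjusted p = 0.285). Fos was called without coIP replicate 1 (-0.54, adjusted p = 0.0137), input replicate 4 (-0.47, 0.0456) or input replicate 5 (-0.49, 0.0418). Fosl2 was called without coIP replicate 4 (0.56, adjusted p = 0.0465) or input replicate 1 (0.67, 0.00768), and Junb without coIP replicate 1 (0.62, 0.0234) or input replicate 2 (0.68, 0.0161). Jund was called without coIP replicate 3 (0.58, adjusted p = 0.0384) or input replicate 1 (0.57, 0.0482).

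In Synpo+/+ ECL samples, Fos was 27.2, 24.0, 25.3, 24.2 and 26.1 CPM in coIP. All 5 lay below all 5 inputs, at 0.599 to 0.750 of their own input, with a log2 fold change of -0.60 ± 0.104 (adjusted p = 0.000229). Fosl2 was 28.1, 25.2, 26.4, 25.0 and 23.0 CPM in coIP and 22.9, 15.1, 19.2, 19.0 and 15.3 CPM in input, without overlap, and had 0.50 ± 0.122 (adjusted p = 0.00295). Jun, at 1.18 to 1.61 of the input in 5 pairs, had 0.49 ± 0.157 (adjusted p = 0.0164), a call lost without input replicate 3 (0.42, adjusted p = 0.0503). These 3 of 5 tested members were called where 58.3% of genes were, a share near the background. Jund had 0.71 ± 0.335 (adjusted p = 0.0816), 0.65 with the block (adjusted p = 0.0341, where 62.4% of genes were called), 0.85 without coIP replicate 2 (adjusted p = 0.0493) and 0.30 without coIP replicate 5, the library with the highest Jund of this group at 8.21 CPM (adjusted p = 0.362), and Junb had 0.17 (adjusted p = 0.783), which turned to -0.16, -0.01 or -0.06 without coIP replicate 4, coIP replicate 5 or input replicate 2.

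Fold changes in coIP moved with exon length over all genes, and the values of Fos and Fosl2, whose exons span 2352 and 9680 bases, moved toward 0 when this trend was removed. With the length trend removed and the pairs as a block, an alternative chosen after seeing the data, Fos had -0.01 (adjusted p = 0.943) in Synpo+/+ control and -0.13 (adjusted p = 0.283) in ECL samples, and Fosl2 had 0.11 (0.297) and 0.17 (0.146). Under the same alternative, the single-exon genes of 1668 to 3189 bases were higher in coIP: Jun had 0.76 (adjusted p = 6.85e-06) and 0.74 (0.000104), Junb 1.01 (0.000116) and 0.75 (0.0170), and Jund 0.98 (9.59e-05) and 1.29 (0.000489). The number of all genes called stayed within 1.5 times that of the unblocked fit with the trend kept, which called 55.0% and 58.3%. With the block and the trend kept, 62.5% and 62.4% of all genes were called. The exact share under the alternative is not given here. In the unblocked fit with the trend kept, Jun, Junb and Jund had 0.47, 0.52 and 0.90 in the samples labelled Synpo-/-, of which Junb was not called. The same fit gave 0.55, 0.52 and 0.48 in Synpo+/+ control and 0.49, 0.17 and 0.71 in Synpo+/+ ECL samples. The values with the trend removed come from another fit and cannot be set against these Synpo-/- values. In the unblocked fit, the genotype difference of the coIP effect was called for 0 members. Removing the length trend moved the median of all genes from 0.044 to 0.100 in control samples.

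**Figure D4:**
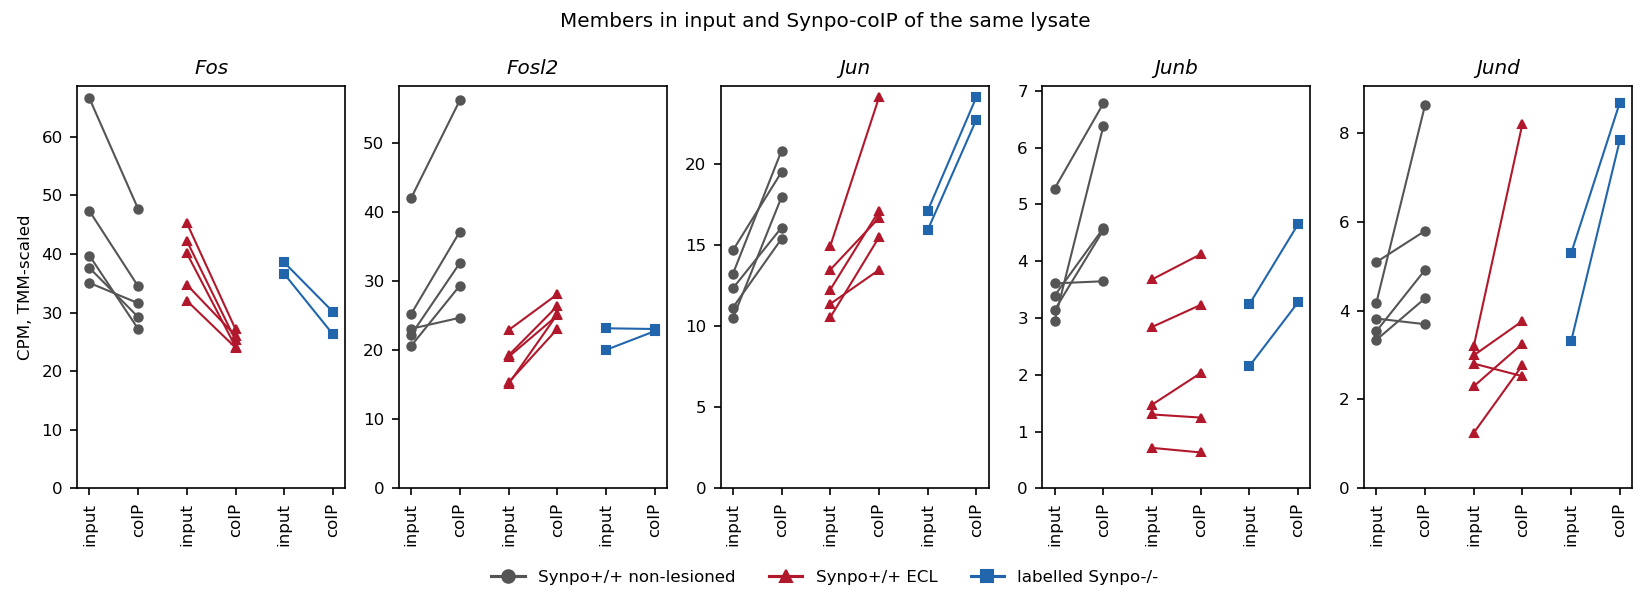
Counts scaled to library size (CPM) of Fos, Fosl2, Jun, Junb and Jund in the input and coIP library of each lysate (axis from 0), with a line joining the 2 libraries of a pair; grey circles are Synpo+/+ control, red triangles Synpo+/+ ECL and blue squares Synpo-/- samples. Fos was lower and Jun higher in coIP in each of the 5, 5 and 2 pairs of the 3 groups.

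The 2 pairs labelled Synpo-/- serve as the background of the coIP, since they lack the precipitated protein by label. Fos was 30.1 and 26.3 CPM in coIP and 38.6 and 36.6 CPM in input, a log2 fold change of -0.45 ± 0.149 (adjusted p = 0.0376). Jun was 22.8 and 24.2 CPM in coIP and 15.9 and 17.1 CPM in input, at 0.47 ± 0.159 (adjusted p = 0.0397). Jund was 8.69 and 7.84 CPM in coIP and 5.29 and 3.31 CPM in input, at 0.90 ± 0.258 (adjusted p = 0.0190). Thus 3 of 6 tested members were called where 31.4% of genes were, and also 3 with the assumed pairs as a block, where 35.8% were. Fosl1, at 0 to 21 counts per coIP or input library, was tested here and had -1.21 (adjusted p = 0.258). When all coIP and input groups shared 1 estimate of the spread, 0 members were called. Leaving out 1 library leaves a lone library in 1 arm, which is then assumed to vary like the other group. In these fits the Jun call was lost in 4 of 4, at log2 fold changes of 0.43 to 0.53 (adjusted p up to 0.182), the Fos call without coIP replicate 2 (0.146) or input replicate 1 (0.175) or 2 (0.127), and the Jund call without input replicate 2 (0.162).

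The coIP effect in Synpo+/+ control samples was compared directly with this background, whose lesion state the titles do not give. The difference, Synpo-/- minus Synpo+/+, was -0.01 ± 0.312 for Fos, -0.03 ± 0.215 for Jun, 0.48 ± 0.390 for Jund (adjusted p = 0.844), -0.35 ± 0.381 for Fosl2 and 0.05 for Junb, and none of 7 tested members was called. Among all genes, edgeR called 0, with 1511 of 20621 tested at an unadjusted p under 0.05, and DESeq2 called 50. The lesion did not detectably change the coIP effect in Synpo+/+ samples either: the ECL effect minus the control effect was -0.17 ± 0.223 for Fos, -0.03 for Jun and 0.28 for Jund (adjusted p = 1.00 each). In that comparison 0 genes were called, and 434 of the 19581 tested had an unadjusted p under 0.05. As a share of the family, Fos was 62.4% of the input and 47.7% of the coIP in Synpo+/+ control, 65.6% and 48.1% in ECL, and 57.8% and 41.4% in the samples labelled Synpo-/-.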

How the data were processed

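RNA was sequenced from 39 regional libraries (DG or CA3 of 1 culture each) and 24 coIP or input libraries (pooled cultures). The deposited values are raw counts per gene, made by the authors with STAR 2.7.8a, cutadapt 3.5 and featureCounts 2.0.1 as named in the submitters' processing notes, for the mouse build mm10 (GRCm38) with a GENCODE annotation. Reads over exons were counted without regard to strand.

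Counts of 63 libraries were tested with edgeR 4.0.16 (limma 3.58.1, R 4.3.3): TMM scaling, filterByExpr, quasi-likelihood fits on the groups compared, and Benjamini-Hochberg adjustment over all genes tested, called at an adjusted p under 0.05. Standard errors are the log2 fold change divided by the square root of the quasi-likelihood F. CPM use TMM library sizes. Differences between effects were tested as interaction terms over 4 groups. 107 symbols stand for more than 1 gene. The fits were also run on simulated counts with known changes, and the outcome is not given here. No library pair within a group differed by less than sampling noise.

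The family was followed in every comparison, with the 3 genes of most similar pattern (mean CPM of 1 or more) and up to 4 genes of smallest p from each list of immediate early genes, AP-1 partners, upstream genes and AP-1 targets. Of the AP-1 partners, 1 gene is counted but not reported by name here. The members and lists were chosen with earlier results of these data known. coIP and input samples of the same number were taken as 1 lysate, which for the samples labelled Synpo-/- is an assumption, since their titles carry 2 numbers that conflict, and the pairs' deviations correlated at 0.189 to 0.442 in Synpo+/+ control, 0.105 to 0.381 in Synpo+/+ ECL and 0.0456 in the samples labelled Synpo-/-. No source used here says whether regional libraries of the same number share a culture, and in no regional comparison did every pair pass a correlation of 0.1, so they were taken as unpaired. One such comparison, the regions of controls labelled Synpo-/-, ranged from -0.0151 to 0.540.

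Alternatives were DESeq2 1.42.0, its scaling, no filter, calls limited to genes with a mean normalized count over 300, all groups in 1 fit, a length trend (lowess span 0.3, genes of mean count 50 or more) removed, the replicate block and each library left out. Gene list counts, levels and correlations without DG Synpo+/+ ECL replicate 5 were added after seeing the data. The authors' regional libraries were amplified before counting, which can widen the spread of weakly expressed members.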

Additional observations from a re-analysis of the deposited data

Results flagged for a closer look

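In 7 of 70 tested sets of libraries (1 member in 1 group), the highest or lowest library stood far from the others, where chance gives about 1 in 20. Fosb reached 2.88 CPM in CA3 Synpo-/- control replicate 5, the others being 0.932 to 1.36, and fell to 0.658 CPM in DG Synpo-/- control replicate 6, the others being 1.42 to 1.70. It was also 0.888 CPM in Synpo+/+ ECL coIP replicate 1, against 0.0566 to 0.284. Fosl1 was 0.154 CPM in DG Synpo-/- control replicate 4, against 0 to 0.0610, which is a matter of single reads. Fosl2 was 42.0 CPM in Synpo+/+ control input replicate 1, against 20.6 to 25.3, and Junb 5.28 CPM in replicate 2 of the same group, against 2.95 to 3.61. Jund was 8.21 CPM in Synpo+/+ ECL coIP replicate 5, against 2.52 to 3.77.

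The lesion effect on Fos differed between the DG and CA3 of the libraries labelled Synpo-/-, with a tested difference of 1.30 on the log2 scale. The test was an interaction term in edgeR, and the call was lost without either of the 2 DG ECL libraries named in the report.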

How the results depend on the processing

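Over the alternatives, the number of members called stayed within 1.5 times in 260 of the recomputed counts and moved in 35. The log2 fold changes of single members kept their direction and their side of the threshold in 407 cases, lost it in 36, gained it in 37 and changed direction in 3, all for Junb in Synpo+/+ ECL coIP (-0.16 without coIP replicate 4, -0.01 without coIP replicate 5 and -0.06 without input replicate 2, the range over libraries left out being -0.16 to 0.48). After ECL, the CA3 libraries labelled Synpo-/- had 0 members called by edgeR and 1 with DESeq2 or with no filter on low counts. The Synpo+/+ DG had 2 called, and 1 with the length trend removed. The DG labelled Synpo-/- had 3, and 1 when calls also needed a mean normalized count over 300, which Junb and Jund did not reach. The Synpo+/+ input had 0, and 2 with DESeq2. Between regions after ECL, 1 member was called in Synpo+/+ and 0 with DESeq2's size factors. In coIP of Synpo+/+ control samples, 1 was called, 2 with DESeq2, with all groups in 1 fit or with no filter, and 3 with the length trend removed. In coIP labelled Synpo-/-, 3 were called and 0 with all groups in 1 fit. With 1 library left out, members called ranged from 1 to 2 after ECL in the Synpo+/+ DG, 0 to 1 between regions in Synpo+/+ ECL, 1 to 3, 2 to 4 and 0 to 2 in coIP of Synpo+/+ control, Synpo+/+ ECL and Synpo-/- samples, and 0 to 1 for the difference of lesion effects between regions labelled Synpo-/-. Except where stated, the cause was not tested.

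With the replicate block, where pairs share a lysate (an assumption for Synpo-/-), 5 members were called in coIP of Synpo+/+ control samples, and 3 with the length trend also removed, an alternative chosen after seeing the data; Jund at 0.65 was gained in Synpo+/+ ECL, and the block changed no call in the samples labelled Synpo-/-. In regional comparisons the samples are known to share only a number, and the correlation of same-numbered samples did not pass 0.1 in every pair of any comparison. There the block gave 3 members between regions in Synpo+/+ ECL, where it raised the count of all genes called from 492 to 5018. It gave 4 members between regions in the ECL libraries labelled Synpo-/- (2 without it), where the count of all genes stayed within 1.5 times 3098. Jund was at 0.66 after ECL in the Synpo+/+ DG with the block (adjusted p = 0.0340). The block moved the count of all genes called to 34 after ECL in CA3 labelled Synpo-/-, 698 in the DG labelled Synpo-/-, 581 and 5018 between regions in Synpo+/+ control and ECL, 2461 and 293 between genotypes in CA3 control and ECL, and 61 for the genotype difference of the coIP effect.

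Counts of all genes called moved as follows. After ECL, CA3 Synpo+/+ had 397, and 1312 with DESeq2, 258 with its size factors, 7 in 1 fit, 96 without the length trend and 2716 unfiltered; CA3 labelled Synpo-/- had 16, and 81, 25 without the length trend, 9 over a mean count of 300 and 86 unfiltered. The Synpo+/+ input had 1007, and 1677 with DESeq2, 656 in 1 fit and 669 over 300. Over 300, the DG had 1399 of 2886 in Synpo+/+ and 1153 of 1989 in Synpo-/-. Between regions, Synpo+/+ ECL had 492, and 1518 with DESeq2, 2036 in 1 fit, 284 over 300 and 1190 unfiltered; over 300 the others had 785 of 1382, 3254 of 5467 and 1889 of 3098. Between genotypes, the counts of 1, 2, 4 and 4 became 700, 21, 235 and 11 with DESeq2 and 1022, 37, 58 and 7 unfiltered, with 19 and 7 in 1 fit for CA3 and DG control and 2 over 300 for DG ECL. Synpo+/+ coIP over 300 had 5767 of 10031 in control and 5956 of 10620 in ECL. For the interactions, DESeq2 gave 313 and 2 for genotype by lesion in CA3 and DG (0 and 1 by edgeR, 160 unfiltered in CA3 and 0 over 300 in DG), 7 and 661 for region by lesion in Synpo+/+ and Synpo-/- (0 and 284, 1 unfiltered and 177 over 300) and 50 for genotype by fraction (0, 55 unfiltered). With 1 library left out, the counts ranged from 0 to 669 in CA3 Synpo+/+, 5 to 22 in CA3 Synpo-/-, 999 to 3338 in DG Synpo+/+, 1118 to 1925 in DG Synpo-/-, 358 to 1070 in input, 660 to 1466 between regions in Synpo+/+ control and 0 to 4746 in ECL, 3483 to 6305 in Synpo-/- coIP and 131 to 259 for region by lesion in Synpo-/-. Between genotypes they ranged from 0 to 16 in CA3 control, 0 to 2 in CA3 ECL and 2 to 9 in DG ECL, and for region by lesion in Synpo+/+ from 0 to 14. Fosb had 10 to 68 counts per regional library and 1 to 31 per coIP or input library, and Fosl1 had 0 to 7 and 0 to 21.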
